A study of Sus scrofa with 12 samples.

Results

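Porcine aortic valvular interstitial cells that had been given TGF-β1 for 24 h were compared with cells given it for 8 h. The comparison used 6 of the 12 arrays of the series, 3 at each time, chosen by their titles. Valvular interstitial cells are the fibroblast-like cells that fill the leaflets of a heart valve. They were released from adult pig aortic valves with collagenase II, grown in medium 199 with 15% fetal bovine serum and passaged 2 times (P2) on tissue culture plastic, and then kept in 1% serum. Porcine TGF-β1 was at 5 ng/ml in both groups. The untreated P2 group had the same passage and serum, and the labels give 3 days of culture for every P2 group, collected together, so the 24 h cells received the cytokine earlier in that period than the 8 h cells. Duration of exposure is therefore the labelled difference, while the age of the culture when TGF-β1 was added also differed between the groups. Freshly isolated cells (P0), neither cultured nor treated, form the remaining group. The labels call the 3 arrays of a group biological replicates and do not say which animals they came from, so p-values measure the spread between these samples.

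TGF-β is a family of secreted ligands that bind paired type I and type II serine/threonine kinase receptors, which phosphorylate SMAD2 and SMAD3. These join SMAD4, enter the nucleus and act on target genes, among them the pathway's own inhibitors. In fibroblasts and valve interstitial cells TGF-β1 is known for inducing the myofibroblast state, with smooth muscle actin stress fibres and a large output of collagen and other matrix proteins. It is also known to restrain cell division and inflammatory gene expression in many mesenchymal cells.

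Between 16564 and 16879 probe sets were over log2 4 in the 6 arrays. Arrays of 1 group correlated at 0.982 to 0.994, and 8 h and 24 h arrays of the same replicate number at 0.990 to 0.994. All 16 fibroblast and valve interstitial markers that could be tested lay above the reporter control level of log2 4.58, the 95th percentile of control probe sets. Values below are log2 levels per array in the order of replicates 1, 2 and 3, and differences are 24 h minus 8 h on the log2 scale with the standard error from limma (3 arrays in each group). A gene is called when its Benjamini-Hochberg adjusted p is under 0.05. Each gene is read from 1 probe set, and levels are not compared between genes.

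The step from 8 h to 24 h was small for most genes. Of 17638 probe sets tested, 430 (2.44%) were called, 198 (1.12%) higher and 232 (1.32%) lower at 24 h. At least 2-fold differences were called for 29 probe sets that were higher (0.164%) and 49 that were lower (0.278%). Read as genes with a single symbol, 162 of 6014 (2.69%) were called, 51 higher (0.848%) and 111 lower (1.85%). The called genes with rises of at least 2-fold numbered 7 (0.116%), against 25 (0.416%) for falls. The median difference over all genes was -0.01, and the 5th and 95th percentiles were -0.41 and 0.34. In 120 of the 162 called genes the 8 h and 24 h arrays did not overlap, as was so for 901 (15.0%) of all genes.

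These counts rest on comparing arrays of the same replicate number. With no replicate block, 20 probe sets were called on the 9 P2 arrays and 41 on all 12, and every one of them was among the 430. They also rest on single arrays. Without 8 h replicate 1, 2 or 3 the calls numbered 24, 37 and 28, and without 24 h replicate 1, 2 or 3 they numbered 36, 435 and 199. With a whole replicate number left out, 0 probe sets were called without number 1 and 0 without number 2, where 1798 and 3098 had an unadjusted limma p under 0.05, and 46 were called without number 3. Of the 72 called genes among the 123 that were chosen for description, 9 were called whichever one of the 6 arrays was left out. These were ASPN, PDE3A, PPL, CLDN11, ANG, RNASE4, CXCL16, AMCF-II and SOD2. Of these 9, PPL, RNASE4, AMCF-II and SOD2 were not called with no replicate block, on 9 or on 12 arrays. The genes among the 72 that were called on 9 arrays without the block were PDE3A, FGL2, ANG, CXCL16 and AKR1CL1. None of the 72 changed direction in any of these settings. Those lost with any single array left out were COL1A2, ACVR1B, ITGAV, CDH11, CDH13, PDLIM1, SERPINE2, DUSP1, PTGS1, CDKN3, RACGAP1, TM7SF2, TCF21, OAS1, XAF1, IFI44L and SOD3.

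**Figure D1:**
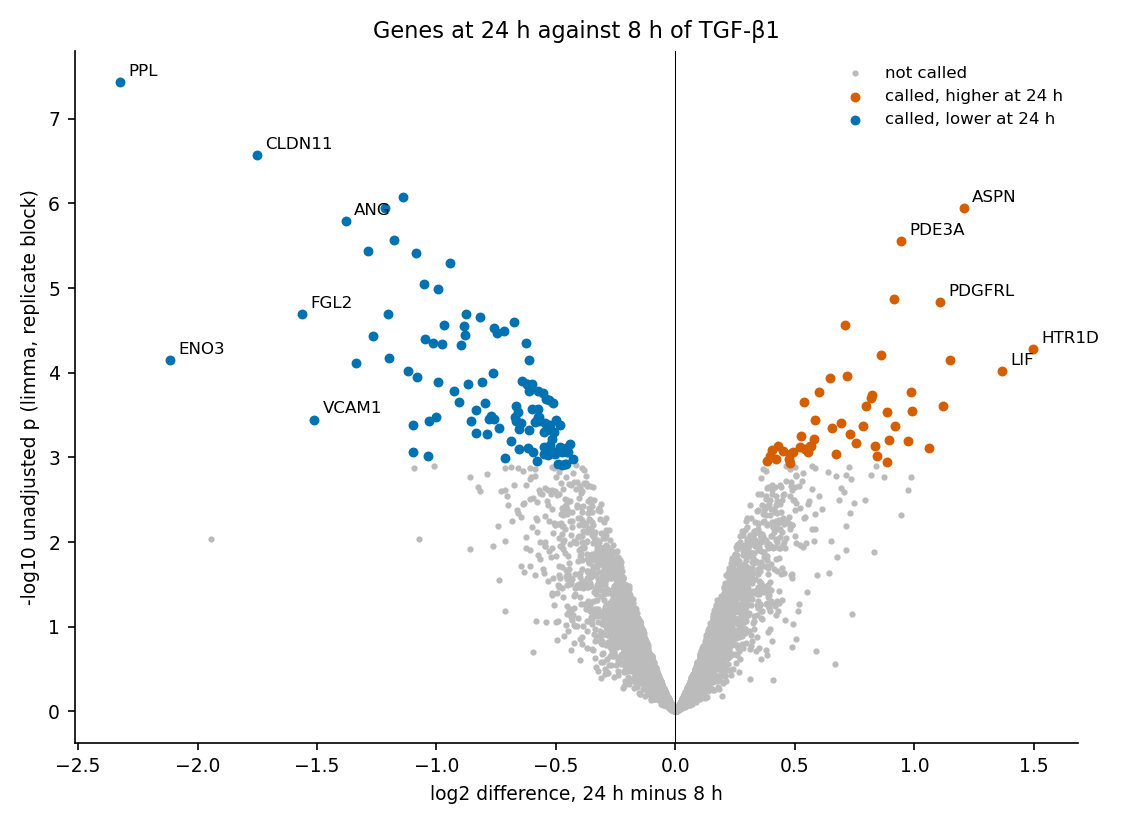
Each point is 1 of 6014 genes, with the log2 difference (24 h minus 8 h) on the horizontal axis and the -log10 of the unadjusted limma p on the vertical axis. The 51 genes called higher are orange and the 111 called lower are blue. Among the called genes PPL and ENO3 stand furthest on the side of lower values, and ASPN and PDE3A have the smallest p-values among the rises.

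LIF had the largest rise among called genes with both means above the control level, and ASPN the next. LIF, a cytokine of the interleukin-6 family, read 6.55, 6.47 and 7.19 at 8 h and 8.06, 7.71 and 8.54 at 24 h, from 3.95, 4.28 and 4.11 in untreated cells. Every 24 h array was above every 8 h array, and the rise was 1.37 ± 0.183 (adjusted p = 0.0166). ASPN encodes asporin, a small leucine-rich proteoglycan that binds collagen and TGF-β. It read 11.74, 11.24 and 11.71 at 8 h and 12.97, 12.58 and 12.77 at 24 h, a rise of 1.21 ± 0.0861 (adjusted p = 0.00216). At 24 h replicates 1 and 3 lay within the range of the P0 arrays, from 12.67 to 13.01, and replicate 2 below it, while untreated P2 arrays lay between 10.74 and 11.28. ASPN rose by 1.14 to 1.27 with any single array left out.

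The serotonin receptor gene HTR1D read 3.63, 4.50 and 3.46 at 8 h, where its mean lay under the control level, and 5.36, 5.58 and 5.14 at 24 h. It was at least 1.71-fold higher at 24 h (adjusted p = 0.0126). It passed the filter on low values only through the 24 h arrays, where it is high, so the call is no support, and its P0 and untreated arrays were also low, between 3.02 and 3.11. C1QTNF3, a secreted protein of the C1q and TNF-related family, read 8.76, 8.17 and 8.13 and then 10.16, 9.45 and 8.90, a rise of 1.15 ± 0.147 (adjusted p = 0.0145). Its 3 arrays at 24 h were all above those at 8 h and below the P0 range of 12.09 to 12.27. PDGFRL, a PDGF receptor-like protein, rose by 1.11 ± 0.113 (adjusted p = 0.00831) on its main probe set, and its other probe set was called higher too. IGFBP5, a secreted binding protein of insulin-like growth factors, read 7.22, 7.40 and 7.11 at 8 h and 8.20, 8.15 and 8.74 at 24 h. That is a rise of 1.12 ± 0.173 (adjusted p = 0.024), with no overlap between the times.

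Some rises brought genes that were low at 8 h toward the level of the untreated arrays, whose values are printed for reference only, since the 8 h arrays would enter both comparisons. PDE3A, a phosphodiesterase that breaks down cyclic nucleotides, read 7.30, 7.36 and 7.41 untreated, 6.21, 6.24 and 6.26 at 8 h and 7.18, 7.21 and 7.16 at 24 h. The replicates of each time lay close together and far from the other time, and the difference was 0.95 ± 0.0764 (adjusted p = 0.0029). A second, dimmer PDE3A probe set, under the control level at both times, was not called. MAP1A, a microtubule-associated protein, read 8.01, 7.96 and 8.40 at 8 h and 9.08, 8.57 and 9.69 at 24 h, beside 9.06, 9.30 and 9.77 untreated. It rose by 0.99 ± 0.156 (adjusted p = 0.025) and all 3 of its probe sets were called higher. ABCB1, a drug efflux pump, rose by 1.06 ± 0.197 (adjusted p = 0.0402), from 7.19, 7.66 and 6.52 to 8.33, 8.11 and 8.13. Its untreated arrays, at 7.83, 8.19 and 7.29, overlapped those at 8 h. The 24 h mean of 8.19 lay above the untreated mean of 7.77, but the untreated and 24 h arrays overlapped. The 24 h arrays were above all 8 h arrays, of which replicate 2 was the highest. KCNMA1, the pore-forming subunit of a calcium-activated potassium channel, is outside this group: it read 4.90, 5.06 and 4.80 untreated, 5.60, 5.48 and 5.72 at 8 h and 6.86, 6.12 and 6.75 at 24 h. It rose by 0.97 ± 0.175 (adjusted p = 0.0378). Another KCNMA1 probe set differed by 0.79 and was not called.

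PPL and ENO3 had the largest falls among called genes, and CLDN11 the next. PPL, periplakin, links intermediate filaments to the cell membrane. It read 7.84, 6.37 and 7.93 at 8 h and 5.27, 4.14 and 5.75 at 24 h, against 8.82, 7.62 and 9.31 in untreated cells. Replicate 2 was lowest in each group, the times did not overlap, and the fall of 2.32 ± 0.104 on the log2 scale (adjusted p = 0.000652, 5.00-fold) was the largest among the called genes. CLDN11, a tight junction claudin, read 8.06, 8.32 and 8.98 and then 6.48, 6.42 and 7.20. It fell by 1.75 ± 0.103 (adjusted p = 0.00157), with every 24 h array under every 8 h array.

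ENO3, the muscle isoform of the glycolytic enzyme enolase, was highest at 8 h among the P2 arrays of each replicate number. It read 6.57, 6.47 and 7.74 untreated, 8.11, 7.24 and 9.97 at 8 h and 6.01, 5.90 and 7.06 at 24 h. Replicate 3 was highest at each time, and ENO3 fell by 2.12 ± 0.271 between 8 h and 24 h (adjusted p = 0.0145). FGL2, a fibrinogen-like immune regulator, read 8.14, 7.73 and 7.72 and then 6.51, 6.55 and 5.85. It fell by 1.56 ± 0.167 (adjusted p = 0.00908), and all 3 of its probe sets were called lower. SLC1A3, a glutamate transporter, read 5.58, 5.69 and 6.41 at 8 h and 4.71, 4.36 and 4.59 at 24 h. Its 24 h mean was under the control level, and it was at least 2.48-fold lower (adjusted p = 0.0146).

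ANG and RNASE4 encode ribonucleases of the RNase A family that are neighbours in the genome, and both fell. ANG read 8.67, 8.23 and 8.46 at 8 h and 7.27, 6.82 and 7.14 at 24 h, a fall of 1.38 ± 0.103 (adjusted p = 0.00218). RNASE4 read 11.75, 11.11 and 12.03 and then 10.37, 9.996 and 10.66, a fall of 1.29 ± 0.108 (adjusted p = 0.00336). Neither gene's groups overlapped, and replicate 2 was lowest at each time for both. AKR1CL1, an aldo-keto reductase, fell by 1.20 ± 0.128 (adjusted p = 0.00908) on its brightest probe set, from 13.20, 13.12 and 12.86 to 11.90, 12.17 and 11.50. Another AKR1CL1 probe set, with mean levels of 5.11 and 5.61, was called higher by 0.51, so the direction for this gene depends on the probe set. LOC102164640 fell by 1.27 ± 0.147 (adjusted p = 0.0111).

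**Figure D2:**
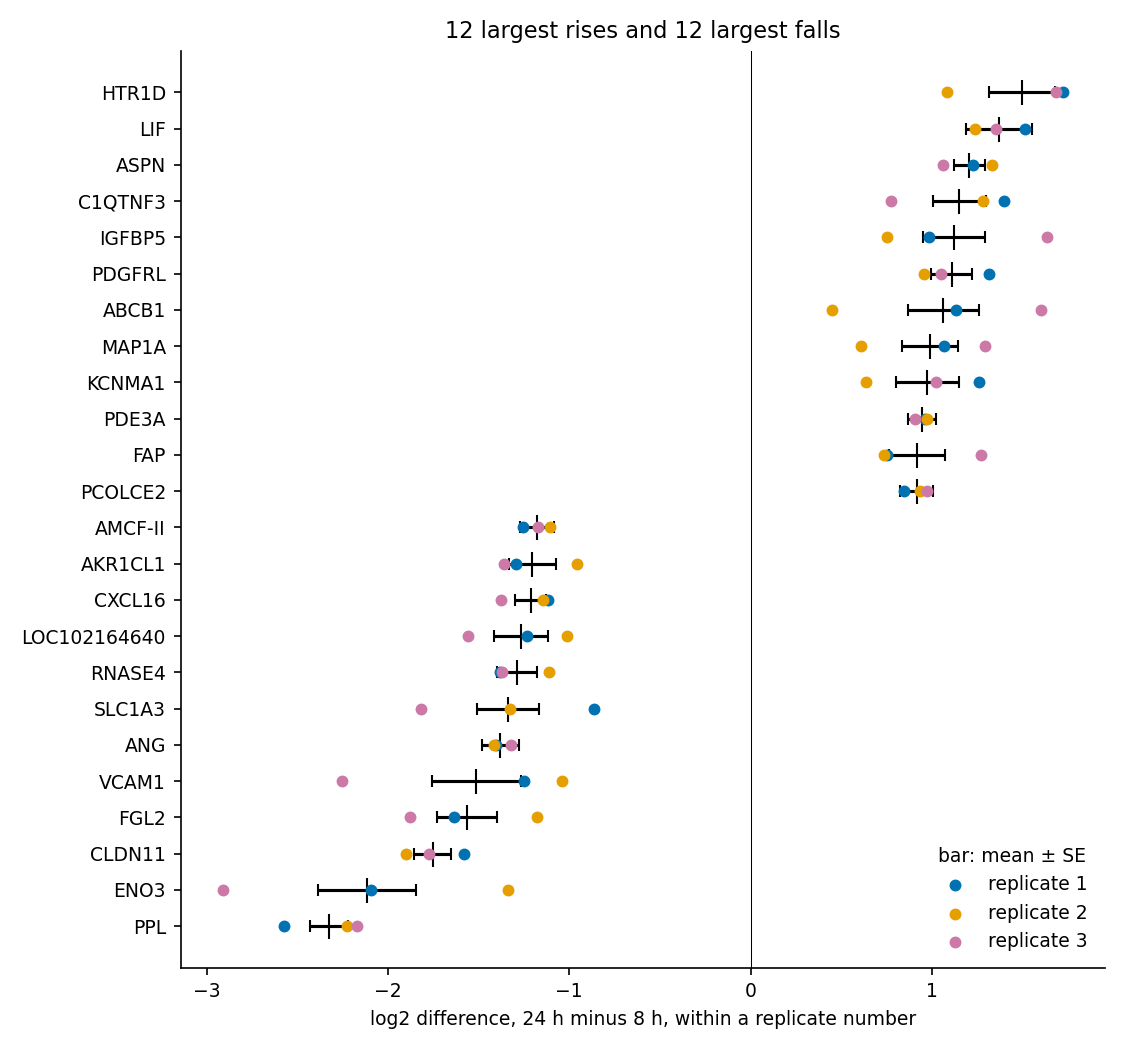
Log2 difference between the 24 h and the 8 h array of each replicate number for called genes whose groups did not overlap, the 12 that rose most and the 12 that fell most. Coloured points are the 3 replicate numbers and bars are the limma estimate ± SE. Every point lies on the same side of 0 as its gene's estimate, and replicate 3 is furthest out for ENO3 and VCAM1.

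Of 14 collagen chains tested, 2 were called higher (beside 0.848% of all genes) and 1 lower (beside 1.85%), with a median difference of 0.17 beside -0.01 over all genes. With the block as a random effect or with no replicate block 0 were called in either direction, and on the 6 TGF-β1 arrays alone 1 in each. COL1A2, a chain of type I collagen, read 8.96, 9.08 and 8.84 at 8 h and 9.43, 9.65 and 9.22 at 24 h. The times did not overlap, and the rise of 0.47 ± 0.0917 (adjusted p = 0.0457) was lost with any single array left out. Another COL1A2 probe set differed by 0.42 and was not called. COL5A3, a chain of type V collagen, read 6.96, 7.45 and 5.53 and then 8.29, 8.20 and 6.42. Replicate 3 was low at both times, so the groups overlapped, but each pair rose and the difference was 0.99 ± 0.144 (adjusted p = 0.0217). Other COL5A3 probe sets, with means under the control level at both times, differed by -0.11 and 0.28 and were not called. COL3A1, a fibrillar collagen chain, was called lower (-0.93 ± 0.135, adjusted p = 0.0213) on a probe set that was dim in every group, with a 24 h mean of 4.79 near the control level. COL5A1 differed by 0.58 ± 0.159 (adjusted p = 0.108), and the fibronectin gene FN1 by 0.38 ± 0.0778 (adjusted p = 0.0523), although neither gene's groups overlapped.

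Of 15 genes for collagen processing and cross-linking, 1 was called, beside 2.69% of all genes. PCOLCE2 encodes an enhancer of the protease that trims procollagen. It read 11.93, 11.67 and 11.96 at 8 h and 12.78, 12.60 and 12.93 at 24 h, a rise of 0.92 ± 0.092 (adjusted p = 0.00783) with no overlap. The cross-linking enzyme LOX differed by 0.04 ± 0.0871 (adjusted p = 0.848), with levels of 12.95, 12.65 and 12.56 at 8 h and 12.88, 12.82 and 12.59 at 24 h. Of 25 matricellular, elastic fibre and basement membrane genes, 1 was called higher (beside 0.848% of all genes) and 2 lower (beside 1.85%). Their median was 0.06. TNC, the matricellular protein tenascin C, read 10.82, 10.71 and 10.73 at 8 h and 11.64, 11.33 and 11.74 at 24 h. That is a rise of 0.82 ± 0.122 (adjusted p = 0.0229) above untreated arrays at 9.67, 9.91 and 9.82, with all 3 groups apart. The secreted glycoproteins SPARCL1 and FBLN1 (fibulin 1) fell by 1.05 ± 0.123 (adjusted p = 0.0113) and 0.63 ± 0.0749 (adjusted p = 0.0117). POSTN, periostin, differed by 0.40 ± 0.172 (adjusted p = 0.271), mostly through replicate 2, which read 12.78 at 8 h and 13.58 at 24 h.

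Among 19 proteoglycan and hyaluronan genes ASPN was the only one called, beside 2.69% of all genes. SHAS2, hyaluronan synthase 2 under its older pig symbol, differed by 0.19 ± 0.156 (adjusted p = 0.585). Of 28 proteases and inhibitors, 1 was called in each direction, beside 0.848% of all genes higher and 1.85% lower. FAP, fibroblast activation protein, a membrane protease of activated fibroblasts, read 8.91, 8.64 and 8.51 at 8 h and 9.66, 9.38 and 9.78 at 24 h. It rose by 0.92 ± 0.154 (adjusted p = 0.0299), and it was the gene of this list with the highest estimate. SERPINE2, an inhibitor of serine proteases, fell by 0.48 ± 0.0946 (adjusted p = 0.0499). Of 20 integrin and adhesion genes, 2 were called higher (beside 0.848% of all genes) and 2 lower (beside 1.85%). The 2 that rose were ITGAV, the integrin subunit that helps activate latent TGF-β (0.56 ± 0.103, adjusted p = 0.0392), and the mesenchymal cadherin CDH11 (0.45 ± 0.084, adjusted p = 0.0413). Both overlapped between the times, and both calls were lost with any single array left out. Other CDH11 probe sets differed by 0.40 and 0.36 and were not called. The 2 that fell were VCAM1 (-1.51 ± 0.247, adjusted p = 0.0282) and the cadherin CDH13 (-0.57 ± 0.0924, adjusted p = 0.0276). CDH13 overlapped between the times.

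**Figure D3:**
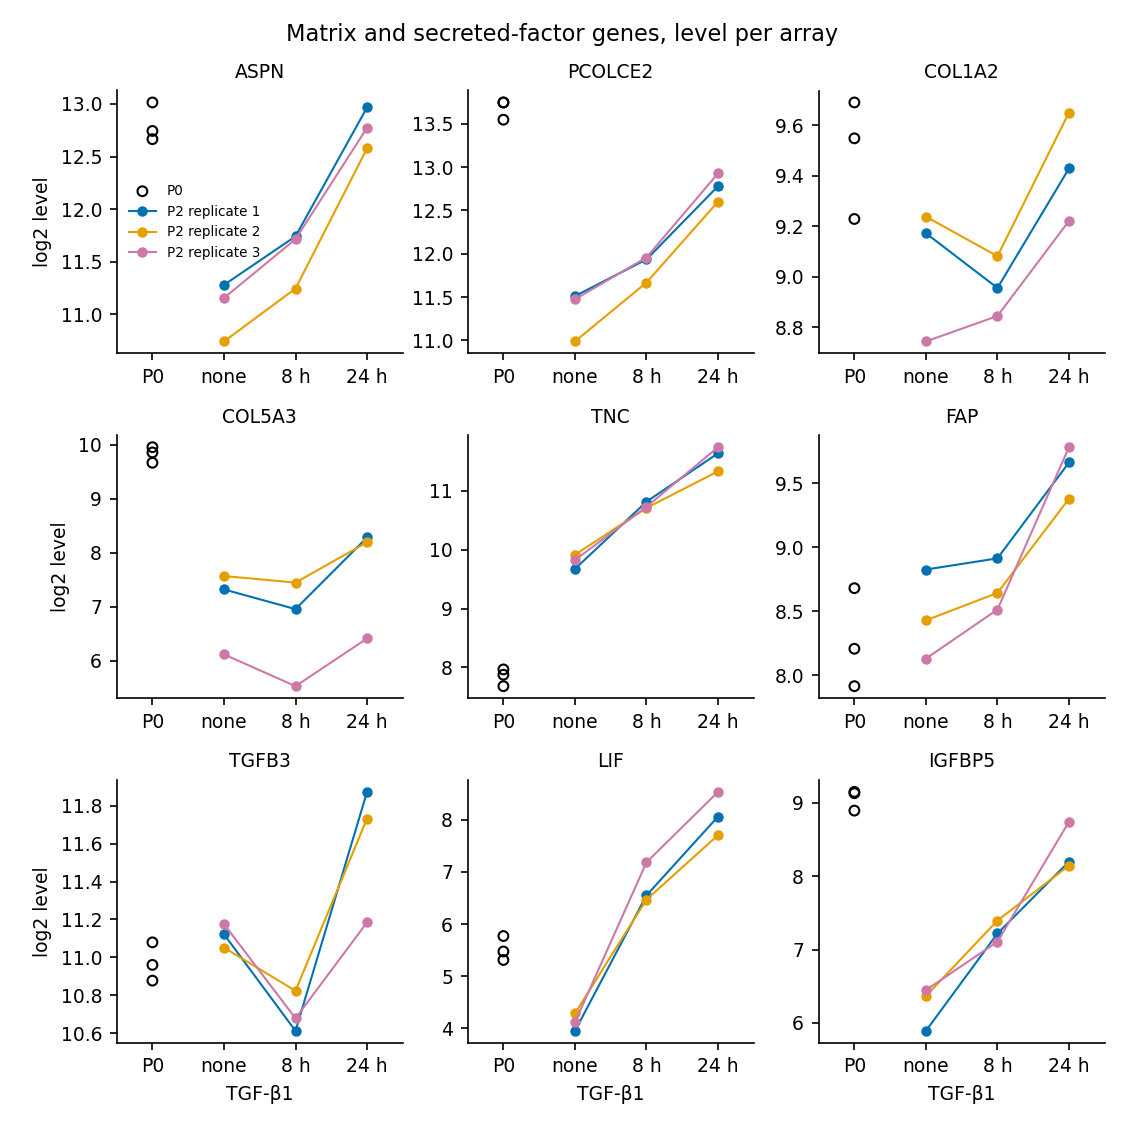
Log2 level per array of 9 matrix and secreted-factor genes in P0 cells (open circles) and in P2 cells with no TGF-β1, 8 h or 24 h of it; each panel has its own vertical scale. Lines join P2 arrays of the same replicate number. All 9 rise from 8 h to 24 h in every replicate, while TGFB3 is lower at 8 h than in untreated arrays, from 10.61 to 10.82 against 11.05 to 11.18. COL5A3 is also lower at 8 h than untreated in each replicate, though the groups overlap, and COL1A2 is lower in replicates 1 and 2.

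The TGF-β pathway itself differed at few points. Of 22 ligands, receptors and SMADs, 1 was called in each direction, beside 0.848% of all genes higher and 1.85% lower. Their median was 0.04. The ligand gene TGFB3 read 10.61, 10.82 and 10.68 at 8 h and 11.87, 11.73 and 11.18 at 24 h, a rise of 0.89 ± 0.159 (adjusted p = 0.0371). All 24 h arrays were above the 8 h arrays, replicate 3 by the least. The rise was 0.73 to 1.11 with any one array left out, but TGFB3 stayed called in only 1 of these 6 settings. Another TGFB3 probe set differed by 0.62 and was not called. ACVR1B, a type I receptor for activins, read 10.32, 10.03 and 10.79 and then 9.37, 9.08 and 9.68, a fall of 1.00 ± 0.162 (adjusted p = 0.0277). SMAD3, the receptor-activated signal carrier, differed by 0.54 ± 0.111 without passing the threshold (adjusted p = 0.0541), with levels of 6.08, 6.56 and 6.32 at 8 h and 6.65, 6.88 and 7.04 at 24 h. None of 8 feedback genes and inhibitors was called by limma, of which 4 had an unadjusted p under 0.05, as did 18.6% of all genes. The pseudoreceptor BAMBI, which blocks TGF-β receptors, differed by -0.49 ± 0.111 (adjusted p = 0.0713). The activin-binding inhibitor FST (follistatin) differed by -0.71 ± 0.162 (adjusted p = 0.0725).

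Of 24 genes tested that TGF-β is known to induce, 4 were called higher (beside 0.848% of all genes) and 0 lower, with a median of 0.13. The 4 were LIF, IGFBP5, ITGAV and CDH11. With the block as a random effect 2 of the 24 were called higher, on the 6 TGF-β1 arrays alone 1, and with no replicate block 0 on 9 arrays. PMEPA1, a feedback inhibitor and strong target of the pathway, read 10.86, 11.53 and 10.24 in untreated cells. It read 13.39, 13.43 and 13.73 at 8 h and 13.63, 13.43 and 13.67 at 24 h, a difference of 0.06 ± 0.281 (adjusted p = 0.942). F3, tissue factor, differed by 0.20 ± 0.423 (adjusted p = 0.858) and the transcription factor SNAI1 by -0.03 ± 0.169 (adjusted p = 0.957). PTHLH, parathyroid hormone-like hormone, differed by 0.35 ± 0.0987 (adjusted p = 0.114) and the neurotrophin BDNF by 0.59 ± 0.413 (adjusted p = 0.5). Of 19 genes that TGF-β is known to repress, 1 was called, VCAM1, beside 2.69% of all genes. In the other 18 the test was not passed, among them PDK4, a kinase that inhibits pyruvate dehydrogenase (0.12 ± 0.226, adjusted p = 0.835). THBD, thrombomodulin, had both means under the control level, from 6.36 to 7.16 in untreated arrays, and no fold is given. None of 21 genes of the BMP, ID, Notch and Wnt list was called by limma, with 5 at an unadjusted p under 0.05, beside 18.6% of all genes. ID1 and ID3, inhibitors of differentiation induced by BMP, differed by 0.04 ± 0.195 (adjusted p = 0.939) and -0.04 ± 0.074 (adjusted p = 0.815).

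The contractile genes that mark myofibroblasts passed no test between the times, apart from PDLIM1. ACTA2, smooth muscle α-actin, read 15.24, 15.36 and 15.38 untreated, 15.19, 15.34 and 15.43 at 8 h and 15.14, 15.35 and 15.25 at 24 h. The 3 groups overlapped near the top of the array's range, whose highest value was 15.95, and 24 h differed from 8 h by -0.07 ± 0.08 (adjusted p = 0.692). TAGLN (transgelin) and CNN1 (calponin 1), actin-binding proteins of smooth muscle, differed by -0.06 ± 0.0759 (adjusted p = 0.736) and 0.03 ± 0.0812 (adjusted p = 0.895). Of 39 contractile and cytoskeletal genes, 1 (2.56%) was called, near the 2.69% of all genes, and their median was -0.04. PDLIM1, an adaptor that binds α-actinin, fell by 0.45 ± 0.0853 (adjusted p = 0.0416), from 12.16, 12.02 and 12.24 to 11.80, 11.60 and 11.65. MYH11, COL1A1, ELN, CCN2, TGFBI, SMAD7 and IL11 had no probe set with a single listed symbol and were not analysed here.

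Several interferon-stimulated genes were lower at 24 h. Such genes encode antiviral sensors and effectors that type I and type II interferons switch on. Of 26 tested, 0 were called higher and 9 (beside 1.85% of all genes) lower, and 24 had estimates below 0, as did 51.8% of all genes. The list's median was -0.28. GBP1, an interferon-induced GTPase, read 7.22, 6.55 and 7.42 at 8 h and 6.24, 5.75 and 5.96 at 24 h. It fell by 1.08 ± 0.148 (adjusted p = 0.018), with every 24 h array below every 8 h array. A second GBP1 probe set was called lower too (-0.66), and another differed by -0.28 and was not called. DDX58, the viral RNA sensor RIG-I, read 9.06, 7.90 and 9.50 and then 8.16, 7.13 and 8.51. It fell by 0.89 ± 0.0989 (adjusted p = 0.00988), and since replicate 2 was low at each time the groups overlapped.

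IFIT1, which binds foreign RNA, read 7.84, 6.43 and 8.83 at 8 h and 7.12, 5.55 and 7.81 at 24 h, a fall of 0.88 ± 0.0934 (adjusted p = 0.00908). Other IFIT1 probe sets differed by -1.04 and -0.10 and were not called. RSAD2, the antiviral enzyme viperin, read 9.15, 8.12 and 9.14 and then 8.70, 7.13 and 8.21, a fall of 0.79 ± 0.121 (adjusted p = 0.0236). In both genes replicate 2 was lowest in all P2 groups and each pair fell. The 5 other called members, named after their values were seen, were IFI35 (-0.76), PSMB8 (-0.67), OAS1 (-0.62), XAF1 (-0.61) and IFI44L (-0.48). The rest spread from -0.51 for the GTPase MX1 to 0.10 for IRF1, a transcription factor of the response. With no replicate block 0 of the 26 were called on 9 arrays, where the adjusted p of DDX58 was 0.666, and 0 on all 12. With the block as a random effect, its correlation estimated, 2 were called, and on the 6 TGF-β1 arrays alone 4. The 9 calls became 0 without any one of the 8 h arrays, and 1, 5 and 4 without 24 h replicate 1, 2 and 3. The median stayed between -0.32 and -0.22 with any single array left out.

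Complement and resting fibroblast genes gave 4 called lower (beside 1.85% of all genes) and 0 higher of 33, with a median of -0.18. With no replicate block 0 of the 33 were called on 9 or on 12 arrays, and with a filter at log2 6 the count was 8. C1S and C1R encode the paired proteases that start the classical complement cascade. C1S read 12.44, 11.85 and 12.44 at 8 h and 11.38, 11.09 and 11.22 at 24 h, a fall of 1.02 ± 0.121 (adjusted p = 0.0117). C1R read 12.23, 11.45 and 12.05 and then 11.36, 10.79 and 11.12, a fall of 0.82 ± 0.0883 (adjusted p = 0.00908). Neither gene's times overlapped, and P0 arrays were higher than any P2 array, from 13.43 to 13.70 for C1S and 14.25 to 14.49 for C1R. MGST1, a membrane glutathione transferase, fell by 0.91 ± 0.138 (adjusted p = 0.0236) and SOD3, the extracellular superoxide dismutase, by 0.60 ± 0.0941 (adjusted p = 0.0247). The 4 calls became 0 without any one of the 8 h arrays or 24 h replicate 1, and were 3 and 5 without 24 h replicate 2 and 3.

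Cytokine and chemokine genes moved in both directions. Of 43 in the cytokine, chemokine and NF-kB list, LIF was called higher (beside 0.848% of all genes) and 4 lower (beside 1.85%). The list's median was -0.09. CXCL16, a membrane-bound chemokine, read 10.69, 10.70 and 11.14 at 8 h and 9.57, 9.55 and 9.77 at 24 h. It fell by 1.21 ± 0.0867 (adjusted p = 0.00216), with every 24 h array below every 8 h array, while the untreated arrays, from 11.12 to 11.55, overlapped those at 8 h. AMCF-II, a pig neutrophil-attracting chemokine, read 12.66, 12.87 and 13.26 and then 11.40, 11.77 and 12.09, a fall of 1.18 ± 0.0946 (adjusted p = 0.0029). A second AMCF-II probe set was called lower too, and another differed by 0.16 and was not called. CCL8, a monocyte-attracting chemokine, fell by 0.99 ± 0.139 (adjusted p = 0.0189) and the cyclooxygenase PTGS1 by 0.57 ± 0.0939 (adjusted p = 0.0289). Another PTGS1 probe set differed by -0.11 and was not called.

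IL6, the inflammatory cytokine of the family that LIF belongs to, read 11.72, 11.23 and 11.60 at 8 h and 10.50, 10.46 and 10.57 at 24 h. The times did not overlap, but the difference of -1.01 ± 0.202 missed the threshold (adjusted p = 0.0508). VCAM1, an adhesion receptor for leukocytes, read 14.09, 13.78 and 14.23 untreated, 12.55, 12.34 and 12.64 at 8 h and 11.30, 11.31 and 10.39 at 24 h. It fell by 1.51 ± 0.247 from 8 h to 24 h (adjusted p = 0.0282), most in replicate 3. With any one array left out it fell by 1.12 to 1.77, but it stayed called in only 2 of these 6 settings. The mitochondrial superoxide dismutase SOD2, an NF-kB target, read 12.07, 12.21 and 12.56 at 8 h and 10.82, 11.17 and 11.59 at 24 h. It fell by 1.09 ± 0.0916 (adjusted p = 0.00339), with no overlap.

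**Figure D4:**
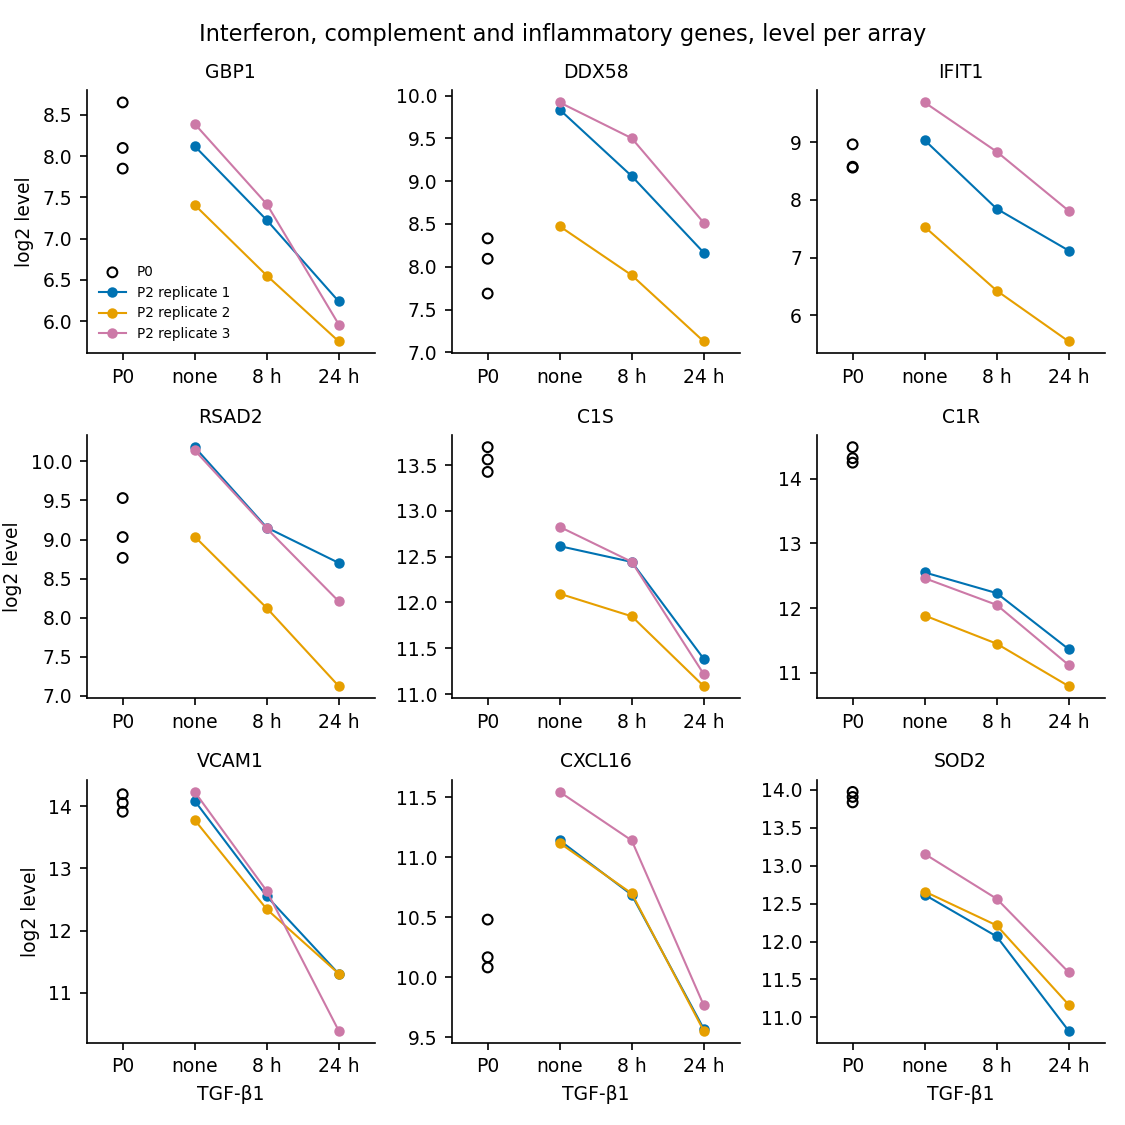
Log2 level per array of 9 interferon, complement and inflammatory genes in P0 cells (open circles) and P2 cells with no TGF-β1, 8 h or 24 h of it, on separate vertical scales. Lines join P2 arrays of the same replicate number. Each gene falls from 8 h to 24 h in all 3 replicates, and replicate 2 lies lowest at 8 h for GBP1, DDX58, IFIT1, RSAD2, C1S, C1R and VCAM1.

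Markers of other cell types a valve digest can hold had mostly negative estimates. Of 22 macrophage and monocyte markers none was called by limma, and 6 had an unadjusted p under 0.05 (beside 18.6% of all genes). Estimates were below 0 for 20 of them, beside 51.8% of all genes, with a median of -0.15. The log2 of their summed level was 11.79 to 12.63 at 8 h and 11.64 to 12.44 at 24 h, and 0 and 1 of the 22 had means under the control level. With a filter at log2 6, 4 of the 22 were called lower. Genes of macrophages outside the list, named after their values were seen, were called lower too: the Fc receptors FCGR3A (-0.61 ± 0.0781, adjusted p = 0.0145) and FCGR2B (-0.52 ± 0.0967, adjusted p = 0.0414), and the folate receptor FOLR2 (-0.51 ± 0.078, adjusted p = 0.0236). All of them overlapped between the times. Of 19 endothelial markers 1 was called, beside 2.69% of all genes, and 15 had estimates below 0, with a median of -0.26. The called marker was PECAM1, an endothelial adhesion molecule, at -0.88 ± 0.102 (adjusted p = 0.0109). PECAM1 read 9.92, 10.29 and 7.78 at 8 h and 8.88, 9.29 and 7.17 at 24 h, replicate 3 being low at each time. The defining cadherin CDH5 read 9.97, 10.71 and 6.81 and then 9.80, 10.18 and 6.85, a difference of -0.22 ± 0.138 (adjusted p = 0.443). The log2 of the summed endothelial level was 11.995 to 13.06 at 8 h and 12.19 to 12.80 at 24 h, and 4 and 5 of the 19 had means under the control level. The part of these cells in the falls of interferon, complement, chemokine and adhesion genes was not tested, and in bulk RNA fewer cells of a type cannot be told from less RNA per cell. None of the lymphocyte (5 tested), erythrocyte (1), muscle (8) and adipocyte (7) markers was called by limma. Of these, 0, 0, 1 and 2 had an unadjusted p under 0.05.

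Most cell cycle genes had small negative differences, few of which passed the test. Of 67 tested, 62 had estimates below 0, beside 51.8% of all genes, and the median was -0.33. In all 3 pairs 35 were lower, as were 23.2% of all genes. By limma 3 were called lower (beside 1.85% of all genes) and 0 higher. That count was 0 with the block as a random effect, 0 with no replicate block and 0 on the 6 TGF-β1 arrays alone, but 13 with a filter at log2 6 and 20 with a trended robust eBayes. TYMS, the thymidylate synthase that supplies a DNA precursor, read 9.67, 9.39 and 9.94 at 8 h and 8.65, 8.68 and 9.38 at 24 h, a fall of 0.76 ± 0.124 (adjusted p = 0.0282). CDKN3, a phosphatase of cyclin-dependent kinases, fell by 0.60 ± 0.112 (adjusted p = 0.0416) and RACGAP1, which acts in cytokinesis, by 0.48 ± 0.0887 (adjusted p = 0.0397). For TYMS, 24 h replicate 3 at 9.38 lay just under the lowest 8 h array at 9.39, and for RACGAP1 the times overlapped. The mitotic cyclin CCNB1 differed by -0.53 ± 0.12 (adjusted p = 0.0683) and the topoisomerase TOP2A by -0.47 ± 0.118 (adjusted p = 0.0893). The 3 calls became 0 without any one of the 8 h arrays or 24 h replicate 1, and were 5 and 4 without 24 h replicate 2 and 3. The median ran from -0.48 to -0.20 over these settings.

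Genes of the secretory pathway had mostly positive estimates and no calls. Of 42 genes of the unfolded protein response and endoplasmic reticulum secretion, 37 had estimates above 0, beside 48.2% of all genes, and the median was 0.15. None was called by limma, while 14 had an unadjusted p under 0.05, all of them higher, beside 18.6% of all genes in either direction. The 2 with the smallest p-values were the coat protein genes SEC23A (0.28 ± 0.0841, adjusted p = 0.135) and COPG1 (0.38 ± 0.11, adjusted p = 0.126), which build vesicles between the endoplasmic reticulum and the Golgi. Of 17 genes for proline, serine, glycine and one-carbon synthesis, 14 had estimates above 0, with a median of 0.25, and the only one called was TYMS, which fell. FKBP11, a prolyl isomerase of the secretory pathway, and SELENOM, a selenoprotein of the endoplasmic reticulum, are in neither list and were named after their values were seen. FKBP11 read 12.83, 12.74 and 12.66 at 8 h and 13.40, 13.30 and 13.27 at 24 h, a rise of 0.58 ± 0.0951 (adjusted p = 0.0282). SELENOM read 12.32, 12.40 and 11.86 and then 13.13, 13.06 and 12.52, a rise of 0.71 ± 0.0791 (adjusted p = 0.00988).

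Sterol genes were called in both directions. Of 20 in the cholesterol list, 3 were called lower (beside 1.85% of all genes) and 1 higher (beside 0.848%), with a median of -0.16. The 3 that fell are enzymes: TM7SF2, a sterol reductase (-0.57 ± 0.0896, adjusted p = 0.0247), ACAT2, which makes acetoacetyl-CoA (-0.55 ± 0.0908, adjusted p = 0.0293), and FDPS, which makes farnesyl diphosphate (-0.54 ± 0.0811, adjusted p = 0.0229). None of them overlapped between the times. ABCA1, which exports cholesterol from the cell, read 6.70, 6.93 and 6.23 at 8 h and 7.36, 7.62 and 7.28 at 24 h, a rise of 0.80 ± 0.123 (adjusted p = 0.024). Its mean was 7.18 untreated, above the 8 h mean of 6.62 and under the 24 h mean of 7.42. In the lipid list of 33 genes, ANGPTL4, a secreted inhibitor of lipoprotein lipase, rose by 0.88 ± 0.14 (adjusted p = 0.0253). It was the only one called, beside 2.69% of all genes. Another ANGPTL4 probe set differed by 0.72 and was not called. The mean of the main ANGPTL4 probe set was 8.38 untreated, 7.40 at 8 h and 8.28 at 24 h. Of 29 glycolysis and hypoxia genes, the vasodilator peptide gene ADM was the only one called (beside 2.69% of all genes), with a list median of -0.07. ADM read 10.58, 10.42 and 10.86 at 8 h and 9.38, 9.43 and 10.15 at 24 h, a fall of 0.97 ± 0.108 (adjusted p = 0.00988). By limma 0 of 41 genes of oxidative phosphorylation and 0 of 38 of ribosome biogenesis were called. In each list 2 had an unadjusted p under 0.05, beside 18.6% of all genes.

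Growth factors, their receptors and transcription factors gave single calls. Over all genes 0.848% were called higher and 1.85% lower. Of 31 growth factors and hormones, ANGPTL4 rose, and ADM and KITLG, the ligand of the receptor KIT, fell (KITLG -0.58 ± 0.113, adjusted p = 0.0473). IGF1, insulin-like growth factor 1, differed by -0.13 ± 0.101 (adjusted p = 0.536). Of 26 receptors and signalling inhibitors, IGFBP5 and the MAP kinase phosphatase DUSP1 rose, DUSP1 by 0.54 ± 0.1 (adjusted p = 0.0402), and the sphingosine receptor S1PR1 fell by 0.57 ± 0.0834 (adjusted p = 0.0213). The DUSP1 mean was 11.32 untreated, 10.82 at 8 h and 11.36 at 24 h. S1PR1 is also expressed by endothelial cells, and its replicate 3 was low at both times, at 8.47 and 7.83. A second S1PR1 probe set was called lower too (-0.76), and another differed by -0.75 and was not called. Among 33 immediate-early and stress genes, the orphan nuclear receptor NR4A3 read 6.20, 6.10 and 6.13 at 8 h and 7.27, 6.70 and 7.04 at 24 h. It rose by 0.86 ± 0.108 (adjusted p = 0.0137), with no overlap. Its untreated arrays read 6.93, 6.78 and 6.80, above all 8 h arrays and overlapping those at 24 h. A dimmer NR4A3 probe set, under the control level at both times, was not called. DUSP1 is in that list too, and SOD2 and the quinone reductase NQO1 fell, NQO1 by 0.54 ± 0.0916 (adjusted p = 0.0324). FOS, EGR1 and MYC, immediate-early transcription factors, differed by -0.01 ± 0.128 (adjusted p = 0.986), -0.29 ± 0.284 (adjusted p = 0.652) and 0.08 ± 0.13 (adjusted p = 0.816).

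Of 30 mesenchymal transcription factors, 1 was called higher (beside 0.848% of all genes) and 2 lower (beside 1.85%), with a median of 0.12. The forkhead factor FOXS1 read 8.18, 8.17 and 7.73 at 8 h and 9.10, 8.58 and 8.74 at 24 h, a rise of 0.78 ± 0.131 (adjusted p = 0.0299). ANKRD1, a cofactor and target of the YAP and TAZ regulators, read 9.11, 9.51 and 7.37 and then 7.97, 8.26 and 6.46. It fell by 1.10 ± 0.206 (adjusted p = 0.0416), with replicate 3 low at each time, so that the groups overlapped. TCF21, a factor of resting fibroblasts, fell by 0.55 ± 0.0949 (adjusted p = 0.0329). Of 16 tested fibroblast and valve interstitial markers, 2 were called higher (beside 0.848% of all genes) and 3 lower (beside 1.85%). FAP and COL1A2 rose and S100A4, COL3A1 and TCF21 fell. The COL1A2 call was lost with any single array left out, and the COL3A1 probe set was dim. S100A4, a calcium-binding protein of motile fibroblasts, read 12.59, 11.54 and 12.22 at 8 h and 11.64, 10.46 and 11.11 at 24 h, a fall of 1.05 ± 0.0997 (adjusted p = 0.00628). None of 15 osteogenic and chondrogenic genes and 7 circadian clock genes was called by limma. Of these, 2 and 1 had an unadjusted p under 0.05, beside 18.6% of all genes. ACAN (aggrecan) differed by -0.03 ± 0.214 (adjusted p = 0.961).

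**Figure D5:**
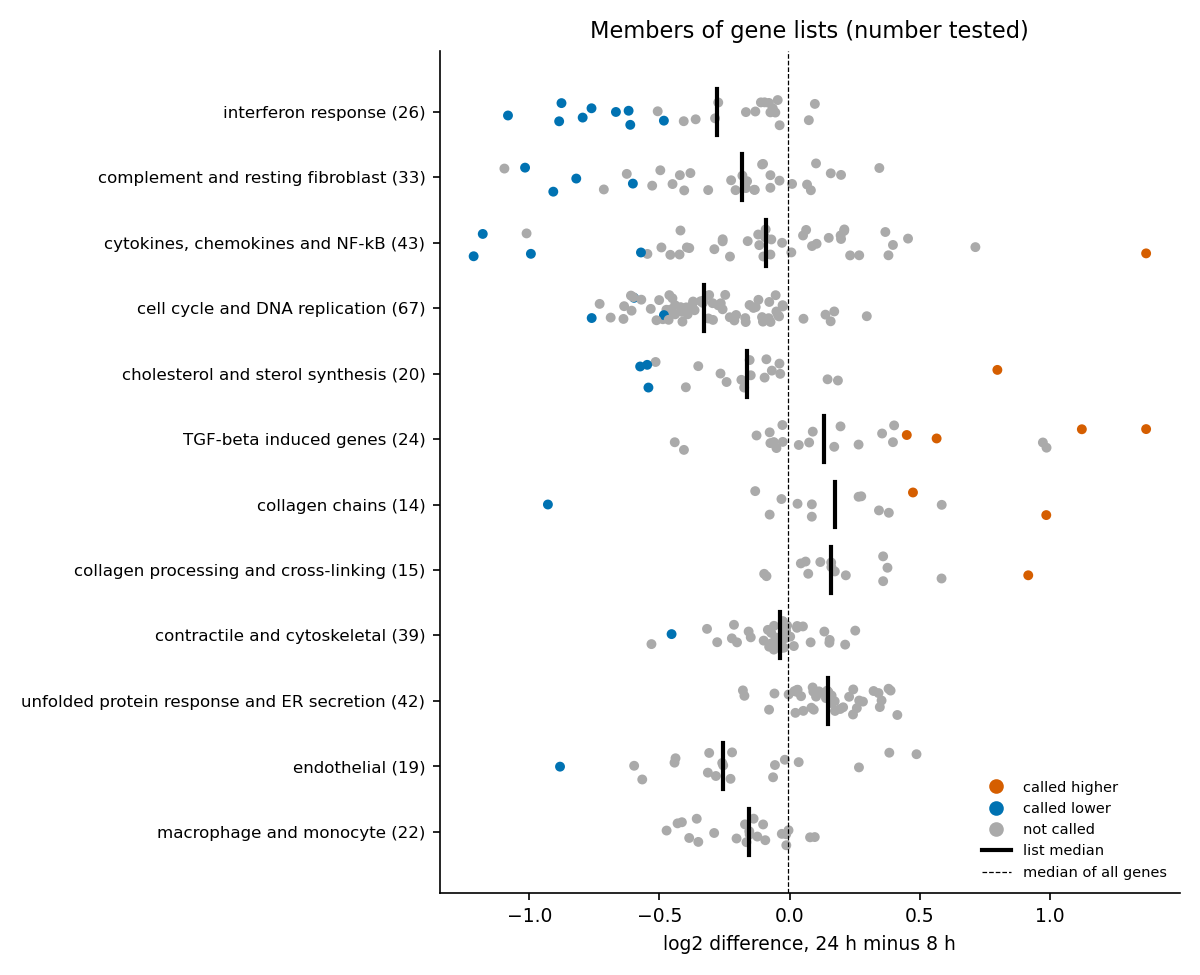
Log2 difference (24 h minus 8 h) of every tested member of 12 gene lists, with the number tested in brackets, the list median as a bar and the median of all genes as a dashed line. Orange and blue points are called higher and lower and grey points are not called. The interferon and cell cycle medians of -0.28 and -0.33 lie furthest below the dashed line, and the secretion list lies above it at 0.15 with no called member.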

How the data were processed

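Total RNA of each sample was hybridised to 1 Affymetrix porcine 3' IVT array, per the labels' protocols. The deposited values are log2 expression per probe set, and the submitters' processing notes name GCRMA without a version. Scan batches and further steps, not given in the sources used here, are unknown. The number of arrays limits the precision (median SE 0.111). The array medians differed by at most 0.0734, and the values were used as deposited.

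Of 23999 probe sets, the 64 reporter controls were left out and 17638 were tested, those over log2 4 in at least 3 of 12 arrays. In the platform annotation 10069 probe sets had 1 symbol, 198 several and 13732 none. A gene was its brightest probe set (highest mean over 12 arrays) with 1 symbol, which gave 6014 genes. Where a group mean lay under the 95th percentile of the controls (4.58), a fold is a lower bound from that level.

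The 3 P2 groups (9 arrays) were fitted with limma 3.58.1 in R 4.3.3 (lmFit, eBayes), with replicate number as a block, leaving 4 residual and 3.54 prior degrees of freedom. Tests were two-sided, with Benjamini-Hochberg adjustment over all 17638 probe sets. The rule of the comparison asked for this block, and the labels do not say that a number pairs arrays across groups. After group means were removed, P2 arrays of the same number and different groups correlated at 0.348 to 0.679 over 9 pairs. Those of different number correlated at -0.513 to 0.0796 over 18. Deviations within a group sum to 0, so positive correlations of the same number push the others below 0, and the ranges are not independent. That the numbers pair the arrays rests on these correlations.

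Genes were named by a rule: the 12 largest rises and 12 largest falls among called genes whose groups did not overlap, up to 4 called members of each list (2 by smallest p in lists with no call), and a panel of familiar TGF-β, matrix, contractile, cytokine and marker genes. The comparison, members, lists and panel were chosen with earlier results of these data known. Lists are described by counts and medians, with no set test. On simulated data with 200 of 17638 probe sets changed, 94% of log2 changes of 1 and 29% of 0.5 were recovered, with 5 false calls. The simulated noise was independent and normal around the fitted values of the same model. It therefore cannot show how far calls in the real data depend on single arrays. Alternatives were no block, a random block, only the 6 TGF-β1 arrays, other filters, quantile normalization, median centring, a trended robust eBayes, the mean of a gene's probe sets, and leaving out arrays and replicate numbers.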

Additional observations from a re-analysis of the deposited data

How the results depend on the processing

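The counts moved with the replicate block. Without it, 9 probe sets were called higher and 11 lower on 9 arrays (5 and 8 at least 2-fold), and 25 and 16 on 12 arrays (12 and 15 at least 2-fold). With the block as a random effect (consensus correlation 0.373) the calls were 122 and 119, and with only the 6 TGF-β1 arrays 97 and 121. No filter gave 79 and 127, a filter at log2 6 gave 377 and 383, and a trended robust eBayes gave 481 and 456. Quantile normalization and median centring changed no count by over 1.5 times, and centring moved the median of all genes to -0.06. With arrays or replicate numbers left out, higher calls ran from 0 to 246 and lower calls from 0 to 189, and at least 2-fold calls from 0 to 51 and from 0 to 54. The calls are few without 1 array of 6 in 4 of the 6 cases, and the cause was not tested. Of the 72 called genes that were chosen for description, 5 passed without the block on 9 arrays and 14 on 12, 67 passed with the mean of a gene's probe sets, and 0 reversed in any of 19 alternatives. Genes under the control level have bounds only, and 15 of the described genes that were not called were called in some alternative.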

Other observations

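Genes of antigen processing were among the falls outside the lists, and were named after their values were seen. PSMB10, a catalytic subunit of the interferon-inducible immunoproteasome, read 9.002, 8.90 and 8.83 at 8 h and 8.22, 8.38 and 8.18 at 24 h, a fall of 0.65 ± 0.111 (limma, adjusted p = 0.0319). PSME1 and PSME2, the 2 subunits of the proteasome activator, fell by 0.60 ± 0.0847 (adjusted p = 0.0189) and 0.74 ± 0.0855 (adjusted p = 0.0109). In all 3 genes every 24 h array lay below every 8 h array. The class I genes TAP1 and B2M of the interferon list differed by -0.04 and -0.10 and were not called.

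Of 2131 pairs of tested genes that are next to each other in the RefSeq annotation of the pig assembly Sscrofa11.1, 4 had both genes called, and in each both were lower at 24 h. Of the 5901 tested genes placed on the assembly, 157 were called, and over all genes 51 were called higher and 111 lower. Whether 4 such pairs exceed the number from chance was not tested. They were ANG with RNASE4, C1R with C1S, the Fc receptor genes FCGR2B with FCGR3A, and TYMS with ENOSF1. The transcripts of TYMS and ENOSF1 overlap in other mammals, so that pair is uncertain. ENOSF1 fell by 0.87 ± 0.122 (adjusted p = 0.0189). The pairs were looked for after the values were seen.

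ACTC1, cardiac α-actin, had the largest difference that was not called, at least 2.37-fold lower at 24 h (adjusted p = 0.126). It read 5.23, 4.60 and 7.66 at 8 h and 4.05, 3.58 and 4.02 at 24 h, with replicate 3 far above the others at 8 h and in untreated cells, where it read 8.78.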
